A study of Mus musculus with 6 samples.

Results

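The expression of 10 Sox transcription factor genes was followed during endoderm differentiation of mouse embryonic stem cells (ESCs). The genes were taken by name from the gene tables, and all 10 were found among the 24054 genes listed. They are Sox17, Sox7 and Sox18 (SoxF), Sox4 and Sox11 (SoxC), Sox9 (SoxE), Sox5, Sox6 and Sox13 (SoxD) and Sox15 (SoxG). The other 10 Sox genes of the tables, which include the SoxB1 genes Sox1, Sox2 and Sox3, served as the background of the family.

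All 6 samples came from a double knock-in (DKI) ESC line, Foxa2-Venus heterozygous and Sox17-Cherry homozygous, in which each fluorescent protein is fused to the transcription factor. The d0 population was sorted on day 0 as negative for both reporters, and is the pluripotent starting point. The d3F population was sorted on day 3 as Foxa2-Venus positive and Sox17-Cherry negative, and the d5FS population on day 5 as positive for both. The last 2 populations had been grown with 1 ng/ml Wnt3a and 10 ng/ml Activin A, signalling proteins that direct ESCs towards endoderm. Each population had 2 replicates, described as independent, so p-values measure the spread between samples of a single cell line. In each population the study's library sheet lists an mRNA library beside a total RNA library without saying which replicate is which, while the labels give total RNA for all. If the sheet holds, the spread between replicates, and so each SE and p-value, also contains the library type. This was not tested. The d5FS cells were chosen as positive for Sox17-Cherry and the d0 and d3F cells as negative, so the differences in Sox17 between d5FS and either of the others were partly set by the sort. The same holds for Foxa2 between d0 and the other populations. The ESCs had been thawed on feeder fibroblasts, depleted of these feeders and passaged on gelatine before differentiation. In sorted bulk samples, fewer cells that express a gene and less RNA of it per cell cannot be told apart.

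Sox proteins carry an HMG box, a domain that binds the minor groove of DNA and bends it. SoxF factors act in endoderm and in blood vessels, and Sox17 is required for the formation of the definitive gut endoderm. SoxC factors are found in many embryonic progenitor cells. Sox9 with Sox5 and Sox6 drives cartilage formation, and Sox9 also marks progenitors in several organs of endodermal origin. SoxD proteins have no transactivation domain of their own and act through partner proteins. Sox15 is the only SoxG gene and is expressed in ESCs.

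The libraries held 16457729 to 22768686 expected counts, which are the read pairs that RSEM assigned to each gene. Genes were counted as changed at a Benjamini-Hochberg adjusted p under 0.05 in edgeR's quasi-likelihood test and an absolute log2 fold change above 1. The populations were set against lists of marker genes, of which Foxa2 and Sox17 were themselves used in the sort. All lists and the 10 genes were chosen with earlier results of these data known. Counts of their changed genes are therefore descriptions and not independent tests. All 8 pluripotency markers were lower in d5FS than in d0, against 10.4% of all genes tested. All 8 mesendoderm markers, Foxa2 among them, were above d0 in d3F, against 2.8% of genes. Of 10 definitive endoderm markers, 8 were higher in d5FS than in d0, with Foxa2 and Sox17 among the 8, against 12.4% of genes. The summed level of 10 markers of endothelium and blood was 4.06 to 7.25 TPM (transcripts per 1000000, a level per length) in d0, 1.93 to 2.83 in d3F and 0.76 to 0.77 in d5FS. In d0, Pecam1 held 2.96 and 2.77 TPM of this sum, Etv2 1.4 and 0.95, and Tek 2.14 and 0.16. Cdh5 stood at 0.01 TPM in both d0 samples and Emcn at 0. The summed level of 8 feeder fibroblast markers was 1.35 to 2.55 TPM in d0, 5.8 to 7.35 in d3F and 12.2 to 23.85 in d5FS. Of the 7 tested, 4 (Col1a1, Col1a2, Col3a1 and Postn) were higher in d5FS than in d0, against 12.4% of genes, and none was lower. Col1a2 alone stood at 10.18 and 9.37 TPM in d5FS. Thy1, Dcn and Pdgfrb did not pass and were at or below 0.31 TPM in d5FS, where Lum had 0 counts. The summed level of 8 neural progenitor and neural crest markers was 3.66 to 26.66 TPM in d0, 15.51 to 32.69 in d3F and 5.05 to 14.8 in d5FS. Whether cells of these other types were present, and had a part in the Sox levels, was not tested.

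Promoter sequences, 250 bases before the start of transcription, are given for the SoxC pair, the most abundant members in d3F, and for Sox15, which fell. They are from RefSeq (GRCm38.p6, the assembly also called mm10), in which 6 of the 10 members were matched. Each is written 5′ to 3′ on the strand of the gene. The Sox4 sequence is chr13:28953700-28953949 (minus strand), that of Sox11 is chr12:27342719-27342968 (minus strand), and that of Sox15 is chr11:69654787-69655036 (plus strand). Distances refer to the starts used by RefSeq, which differ from the gene starts in the GENCODE positions given below. Capitals mark matches, on either strand, to any of 9 short motifs. These were ACAAT for SOX proteins, TGTTTAC for Foxa proteins, AGATAA for the zinc finger factors of the Gata family, TCACAC for T-box proteins, CAGACA for Smad proteins, CTTTGAT for TCF/LEF proteins, TAATCC for paired-type homeobox proteins, ATGCAAAT for octamer proteins and TATAAA for the promoter element known as the TATA box.
Sox4: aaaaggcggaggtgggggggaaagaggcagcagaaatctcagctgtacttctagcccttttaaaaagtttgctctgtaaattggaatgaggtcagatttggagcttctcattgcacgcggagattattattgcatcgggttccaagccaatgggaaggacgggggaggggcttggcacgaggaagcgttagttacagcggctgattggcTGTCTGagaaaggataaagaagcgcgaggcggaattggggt
Sox11: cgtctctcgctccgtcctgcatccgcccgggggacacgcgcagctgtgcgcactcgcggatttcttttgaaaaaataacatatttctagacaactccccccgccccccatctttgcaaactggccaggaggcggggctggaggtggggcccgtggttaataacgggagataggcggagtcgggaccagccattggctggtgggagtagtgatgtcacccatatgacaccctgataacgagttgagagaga
Sox15: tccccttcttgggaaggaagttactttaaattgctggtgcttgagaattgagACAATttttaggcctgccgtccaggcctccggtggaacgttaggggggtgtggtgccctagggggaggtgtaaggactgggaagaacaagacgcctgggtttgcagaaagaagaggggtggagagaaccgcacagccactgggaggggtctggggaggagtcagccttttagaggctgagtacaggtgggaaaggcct
Sox4 held 1 match to the Smad letters, on the reverse strand, 41 bases before the start. Sox15 held 1 match to the SOX letters, 198 bases before the start. Sox11 held no match to any of the 9. Of all 32851 promoters of the same length, 17.1% held the Smad letters and 27.7% the SOX letters. G and C made up 50.8% of the Sox4 sequence, 58% of that of Sox11 and 55.6% of that of Sox15, against a median of 52.4% over all promoters.

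From d0 to d5FS, Sox17, Sox4, Sox9 and Sox5 rose, and Sox13 and Sox15 fell. Sox17 and Sox9 were already higher in d3F than in d0, and from d3F to d5FS the only member past the thresholds was Sox17, the gene of the sort. From d0 to d3F, 2 of the 10 members were called, against 4.7% of the 14539 genes tested. Both were higher, against 2.8% of genes called higher and 1.9% called lower. From d3F to d5FS, 1 of 10 was called, against 1.54% of genes (1.08% higher and 0.461% lower). From d0 to d5FS, 6 of 10 were called, against 22.8%. In that comparison 4 members, Sox17 of the sort among them, were higher, against 12.4% of genes, and 2 were lower, against 10.4%. The median log2 fold change of the members was 0.30, 0.31 and 0.91 in the 3 comparisons, and that of all genes tested was -0.01, 0.01 and 0.02. The 3 comparisons share samples and are not independent of each other. The CPM values of the populations compared did not overlap in 6, 5 and 8 of the 10 members, against 49.5%, 51.6% and 62.3% of genes. All 10 members passed the filter on low counts. Sox9 passed through d3F and d5FS, Sox5 through d5FS and Sox18 through d0 alone, so that a difference was a condition of testing these 3 genes.

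**Figure D1:**
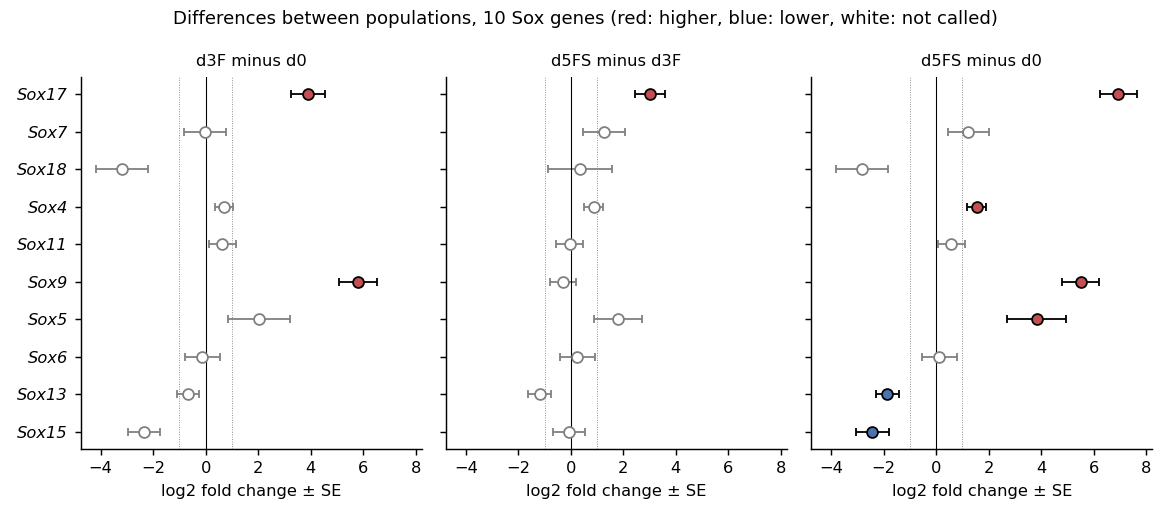
Log2 fold changes of the 10 Sox genes between populations, from the edgeR fit to all 6 samples, with bars of 1 standard error (SE). Filled points passed the thresholds (2, 1 and 6 members from left to right), and dotted lines mark log2 fold changes of -1 and 1.

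In d0 the Sox transcripts were mostly those of Sox2, with 43.43 and 40.14 TPM of 67.71 and 52.54 TPM summed over all 20 Sox genes. The 10 members made up 21.73 and 10.56 TPM in d0, 27.03 and 14.79 TPM in d3F, and 36.16 and 20.98 TPM in d5FS. The value in replicate 1 exceeded that in replicate 2 in every population, and on this scale the ranges of neighbouring populations overlapped. TPM compare genes within a sample, so this overlap is not a comparison of levels between populations. Within replicate number 1 and within number 2, the sum of the 10 members rose at each step. As a share of the 20 genes, SoxC (Sox4, Sox11 and Sox12) held 23.6% and 9.63% in d0, then 51.2% and 56.9% in d3F, and lastly 61.6% and 41.5% in d5FS. The SoxF share was 1.17% and 0.476% in d0, then 2.5% and 9.34% in d3F, and lastly 18.9% and 37.2% in d5FS. The SoxB1 share moved the other way, from 65.4% and 77.5% in d0, through 35.5% and 24.4% in d3F, down to 11.7% and 12% in d5FS. These shares describe each sample and were not tested.

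**Figure D2:**
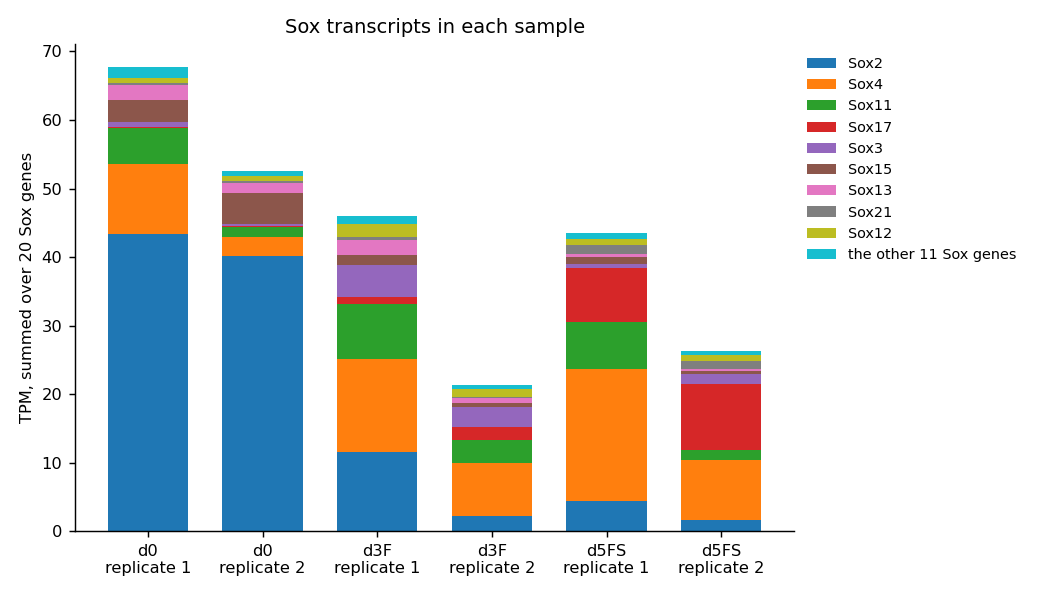
TPM of the Sox genes stacked for each of the 6 samples, with 9 genes drawn by name and the other 11 together. Sox2 fills most of both d0 bars, and Sox17 takes up 18.2% and 36.8% of the bars of d5FS replicates 1 and 2.

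Sox17, on chromosome 1 of mm10 from 4490931 to 4497354, had 0.769 and 0.449 counts per 1000000 (CPM) in d0 replicates 1 and 2. It had 5.14 and 13.9 CPM in d3F, and 58.1 and 102 CPM in d5FS. The 3 populations did not overlap, and in d3F replicate 2 was above replicate 1 by 1.59 on the log2 scale of normalized CPM. From d0 to d3F, both negative for Sox17-Cherry, Sox17 rose by a log2 fold change of 3.91 (standard error, SE, of 0.65, with adjusted p = 0.0173 in edgeR). This call was lost without d0 replicate 2 (3.69, adjusted p = 0.0689) and without d3F replicate 2 (2.91, adjusted p = 0.0675). From d3F to d5FS, where the sort selects for it, the log2 fold change was 3.03 (SE 0.57, adjusted p = 0.0453 from edgeR), and it did not pass without d3F replicate 1 (2.42, adjusted p = 0.238), without d5FS replicate 1 (3.40, adjusted p = 0.116) or without d5FS replicate 2 (2.50, adjusted p = 0.172). From d0 to d5FS, where the sort also sets negative against positive cells, the log2 fold change was 6.94 (SE 0.71). Sox17 has 5 transcripts in the tables, and their abundance-weighted length was 3057 and 3288 bases in d0 and 3329 to 3355 bases in the other samples. The d0 lengths rest on 17 and 10 counts.

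Sox7, a factor of the primitive and parietal endoderm, lies on chromosome 14 from 63943673 to 63950732. Its level was 0.814 and 0.359 CPM in d0, 0.264 and 0.919 CPM in d3F, and 1.94 and 1.03 CPM in d5FS. Both d5FS values were above all others, the nearest by 0.919 against 1.03 CPM, and the difference from d0 did not pass the test (log2 fold change 1.23, SE 0.78, adjusted p = 0.281 from edgeR). At 18 and 8, 6 and 19, and 32 and 18 counts, the depth gave wide intervals, from 0.608 to 1.62 CPM for the lower d5FS sample (exact Poisson 95% interval, which covers counting error only). Of the list of 10 extraembryonic endoderm markers that includes Sox7, 7 rose from d0 to d5FS, against 12.4% of all genes. Hnf4a, a nuclear receptor of visceral endoderm and liver, had 0.0905 and 0.18 CPM in d0 and 41.7 and 60.4 CPM in d5FS, and Ttr, which encodes the carrier protein transthyretin, had 0 and 0.135 CPM in d0 and 11.5 and 20.1 CPM in d5FS. Of the 3 that did not pass, named here after their values were seen, Rhox5 had 26.2 and 66 CPM in d0 and 23.3 and 36.1 CPM in d5FS (log2 fold change -0.79), Amn had a log2 fold change of 0.82, and the third was Sox7 itself. The 10 markers summed to 54.91 to 73.14 TPM in d0, 55.38 to 63.27 TPM in d3F and 108.64 to 150.49 TPM in d5FS. Most of each sum was Sparc and Rhox5. Sparc had 42.38 and 15.7 TPM in d0 and 116.11 and 72.76 TPM in d5FS. Rhox5 had 28.14 and 38.36 TPM in d0 and 16.64 and 17.72 TPM in d5FS. In d0, Afp, Ttr and Hnf4a were at or below 0.05 TPM.

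Sox18, a factor of blood and lymph vessels, lies on chromosome 2 from 181669836 to 181671640. It had 22 and 14 counts in d0, 4 and 0 counts in d3F, and 2 and 2 counts in d5FS. These are 0.995 and 0.629 CPM in d0 and at most 0.176 CPM elsewhere, and the d0 samples stood above the other 4. The 0 counts of d3F replicate 2 allow a level of up to 0.145 CPM (3 counts). The difference from d0 did not pass the thresholds, with adjusted p = 0.108 in d3F and 0.072 in d5FS from the edgeR fit to all samples. In the fit of d0 and d5FS alone, the difference passed (log2 fold change -2.81, adjusted p = 0.0441). The summed counts of d5FS came to 0.145 times those of d0 on the CPM scale, with a counting interval of 0.0375 to 0.404. Of the 10 endothelial and blood markers, Tek, Pecam1 and Etv2 fell from d0 to d5FS and none rose, with 4 of the 10 tested, against 10.4% of all genes lower. The other tested marker, the receptor Kdr, had 1.13 and 0.539 CPM in d0, 2.24 and 7.25 CPM in d3F, and 1.28 and 0.228 CPM in d5FS, and passed in no comparison. Cdh5, a defining cadherin of endothelium, stood at 0.0452 and 0.0899 CPM in d0, 0.307 and 1.31 CPM in d3F, and 0 and 0.456 CPM in d5FS. Emcn, a sialomucin of endothelium, had 0 counts in all d0 and d3F samples.

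**Figure D3:**
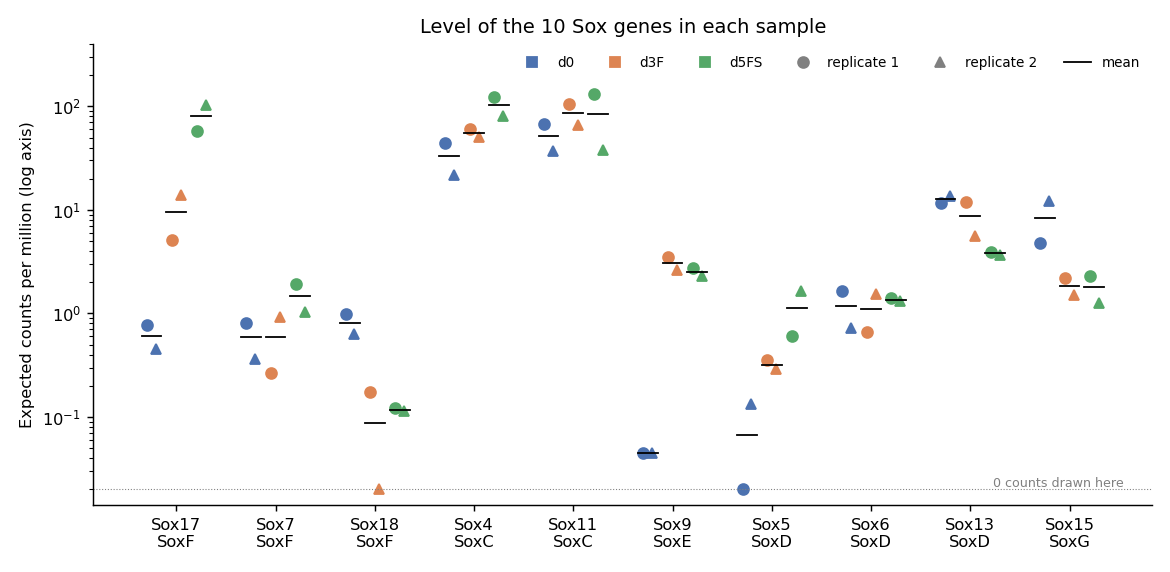
Expected counts per 1000000 (CPM) of the 10 Sox genes in each sample, on a log axis, with populations by colour, replicates by shape and the mean as a bar. Sox17 climbs from below 1 CPM in d0 to 58.1 and 102 CPM in d5FS, while Sox7 stays at or below 1.94 CPM and Sox18 is lower in the 4 differentiated samples.

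Sox4, on chromosome 13 from 28948919 to 28953713, had the highest TPM of the members in both d3F samples and in d0 and d5FS replicate 1. In d0 replicate 2 Sox15 (4.53 TPM) was above Sox4 (2.75), and in d5FS replicate 2 Sox17 (9.68 TPM) was above Sox4 (8.78). Sox4 had 44.1 and 21.6 CPM in d0, 60.2 and 50.3 CPM in d3F, and 123 and 81.2 CPM in d5FS, without overlap between populations. On the TPM scale, with values of 10.16 and 2.75 (d0), 13.6 and 7.7 (d3F), and 19.18 and 8.78 (d5FS), the populations did overlap. Sox4 has 1 transcript, of 2953 bases, so its TPM and CPM differ only by a factor of each sample. The overlap on the TPM scale therefore comes from that factor. Within each replicate number, the TPM of Sox4 rose at each step. From d0 to d5FS Sox4 rose by a log2 fold change of 1.55 (SE 0.35, adjusted p = 0.0185 from edgeR), and the steps of 0.68 to d3F (adjusted p = 0.321) and 0.86 to d5FS (adjusted p = 0.242) did not pass on their own. The call was lost without d0 replicate 2 (1.21, adjusted p = 0.0781) and without d5FS replicate 1 (1.27, adjusted p = 0.106).

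Sox11, on chromosome 12 from 27334264 to 27342574, had 67.6 and 36.7 CPM in d0, 106 and 65.4 CPM in d3F, and 131 and 38.2 CPM in d5FS. The populations overlapped, and no comparison passed (log2 fold change from d0 to d5FS 0.58, SE 0.52, adjusted p = 0.443 from edgeR). Replicate 2 was below replicate 1 in each population, by 0.65, 0.52 and 1.67 on the log2 scale of normalized CPM, and the last of these was the widest replicate gap of any member in d5FS. Within replicate number 1 the log2 difference from d0 to d5FS was 0.90, and within number 2 it was -0.12. Per length, Sox11 (1.56 to 5.18 TPM in d0, 1.38 to 6.8 TPM in d5FS) was below Sox4 in every sample.

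The genes Tead2, Tubb3 and Dcx, which SoxC factors are known to regulate in neural and progenitor cells, were examined beside them. Tead2, a partner of the Hippo pathway coactivator Yap, had 101 and 120 CPM in d0 and 330 and 399 CPM in d5FS, a log2 fold change of 1.60 (adjusted p = 0.0173 from edgeR). Tubb3, a neuronal tubulin, fell from 69.6 and 88.5 CPM to 1.4 and 3.42 CPM, a log2 fold change of -5.15 (adjusted p = 0.00294). Dcx was not tested, at 0.225 to 0.911 CPM over the 6 samples.

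Sox9, on chromosome 11 from 112782224 to 112787760, had 1 count in each d0 replicate. It had 80 and 54 counts in d3F, or 3.51 and 2.61 CPM, and 45 and 40 counts in d5FS, or 2.73 and 2.28 CPM. The d0 samples stood apart and the other populations overlapped. The summed counts in d3F were, on the CPM scale, 68.4 times those in d0, with a counting interval of 18.6 to 571, because d0 held 2 counts in all. The rise passed in both populations (adjusted p = 0.0102 in d3F and 0.00304 in d5FS from edgeR), and it did so in every fit that left out 1 sample. Between d3F and d5FS the log2 fold change was -0.30 (SE 0.49, adjusted p = 0.791). At 0.17 to 0.55 TPM in d3F and d5FS, its level per length was below those of Sox4, Sox11 and Sox17 in each of these samples.

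Among the SoxD genes, Sox5 rose and Sox13 fell. Sox5, on chromosome 6 from 143828425 to 144781977, had 0 and 3 counts in d0, 8 and 6 counts in d3F, and 10 and 29 counts in d5FS. The populations did not overlap. The summed counts in d5FS were, on the CPM scale, 17 times those in d0, with a counting interval of 5.39 to 85.8. The rise to d5FS passed in the fit to all samples (adjusted p = 0.0404 from edgeR) and in 1 of the 6 fits that left out a sample, the one without d0 replicate 2. The largest of the adjusted p-values in those fits was 0.206, without d5FS replicate 2. Even in d5FS, Sox5 stood at 0.04 and 0.07 TPM.

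Sox6, on chromosome 7 from 115470872 to 116038796, had 36 and 16 counts in d0, 15 and 32 counts in d3F, and 23 and 23 counts in d5FS. No comparison passed, with log2 fold changes of -0.12, 0.25 and 0.12 (SE 0.67 in each, adjusted p of 0.881 or more from edgeR). The counting interval of the d5FS to d0 ratio ran from 0.759 to 1.75. Annotated antisense RNAs lie within both Sox5 and Sox6, and of these Sox5os3 was listed in the tables, with at most 1 count per sample. The weighted transcript length of Sox6, which has 6 transcripts, ranged from 8411 to 8706 bases with no split by population.

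Sox13, on chromosome 1 from 133382303 to 133424377, had 11.7 and 13.6 CPM in d0, 11.9 and 5.56 CPM in d3F, and 3.95 and 3.65 CPM in d5FS. The d5FS samples lay below all others, and in d3F replicate 1 was within the range of d0. The fall from d0 to d5FS was -1.87 on the log2 scale (SE 0.44, adjusted p = 0.0205 from edgeR), with -1.60 and -2.05 within replicate numbers 1 and 2. The call was lost without d0 replicate 2 (-1.62, adjusted p = 0.0665), without d5FS replicate 1 (-1.87, adjusted p = 0.107) and without d5FS replicate 2 (-1.85, adjusted p = 0.0896).

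Sox15, on chromosome 11 from 69655314 to 69656727, had 4.75 and 12.1 CPM in d0, 2.2 and 1.5 CPM in d3F, and 2.31 and 1.25 CPM in d5FS. Both d0 samples were above the other 4. From d0 to d5FS it fell by 2.43 on the log2 scale (SE 0.63, adjusted p = 0.0278 from edgeR), and the difference in d3F was of a like size (-2.35, SE 0.62) with adjusted p = 0.0698. The call in d5FS was lost without d0 replicate 2 (-1.42, adjusted p = 0.15), without d5FS replicate 1 (-2.87, adjusted p = 0.0932) and without d5FS replicate 2 (-2.08, adjusted p = 0.133). The call in d3F was made without d0 replicate 1 (-2.94, adjusted p = 0.0171). Within replicate numbers 1 and 2, the log2 difference from d0 to d5FS was -1.06 and -3.36. The last 31 bases of Sox15 overlap the oppositely transcribed Mpdu1, a gene for dolichol-linked sugar use. Mpdu1 had 68.7 and 99.3 CPM in d0 and 33.7 and 57.2 CPM in d5FS (log2 fold change -1.02, adjusted p = 0.0968). The strand setting of the counting is not given in the sources used here, so reads of the shared bases could not be told apart. The same limit holds for Sox4, which shares 2753 bases with the oppositely transcribed Gm26735, and for Sox17, which shares 804 with Gm37587. These RNAs were not analysed here.

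Per length, the order of the members in d0 was Sox4 (10.16 and 2.75 TPM), Sox15 (3.24 and 4.53), Sox11 (5.18 and 1.56) and Sox13 (2.23 and 1.43), and every neighbour in this order overlapped the next. Within each d0 sample, Sox4 was above Sox11 and Sox11 above Sox13. The other 6 members were at or below 0.45 TPM in d0. In d3F the order was Sox4 (13.6 and 7.7 TPM), Sox11 (7.98 and 3.34), Sox13 (2.21 and 0.7), Sox17 (1.02 and 1.87) and Sox15 (1.46 and 0.67), with an overlap between each neighbouring pair but Sox11 and Sox13. Within each d3F sample, Sox4 was above Sox11 and Sox13 above Sox15. In d5FS the order was Sox4 (19.18 and 8.78 TPM), Sox17 (7.9 and 9.68), Sox11 (6.8 and 1.38), Sox15 (1.05 and 0.4) and Sox13 (0.51 and 0.33). Sox4 and Sox17 overlapped, Sox17 was above Sox11 in both samples, and Sox11 was above Sox15. The ranges of Sox15 and Sox13 overlapped, though Sox15 was above Sox13 within each d5FS sample. Sox9, Sox7, Sox5, Sox6 and Sox18 were at or below 0.3 TPM.

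Genes known as regulators, partners or targets of the SoxF factors in endoderm were examined from a list of 16. Several of them, Foxa2, Cer1, Gata4, Gata6 and Mixl1 included, are also in the marker lists above, so the counts are in part a repeat. The list was chosen with earlier results of these data known. From d0 to d3F, 9 rose and none fell, against 2.8% of all genes higher, and from d0 to d5FS 13 rose and none fell, against 12.4%. From d3F to d5FS, Cer1 rose and Mixl1, a homeobox factor of the primitive streak, fell. The median log2 fold change of the list was 2.69 to d3F and 3.22 from d0 to d5FS. Cer1, a secreted inhibitor of Nodal and BMP signals, changed by 5.81 from d0 to d3F (adjusted p = 0.00269 from edgeR) and by 2.75 from d3F to d5FS (adjusted p = 0.0242). Gata6, a zinc finger factor of endoderm, changed by 5.41 to d3F, and Gata4 by 6.83 from d0 to d5FS. Foxa2 changed by 8.42 to d3F, and it was itself used in the sort. Foxh1, Ctnnb1 and Lama1 passed in none of the comparisons, named here after their values were seen. From d0 to d5FS, the log2 fold change was 0.30 for Foxh1 and 0.39 for Ctnnb1, both signal transducers, and 0.03 for the laminin Lama1.

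**Figure D4:**
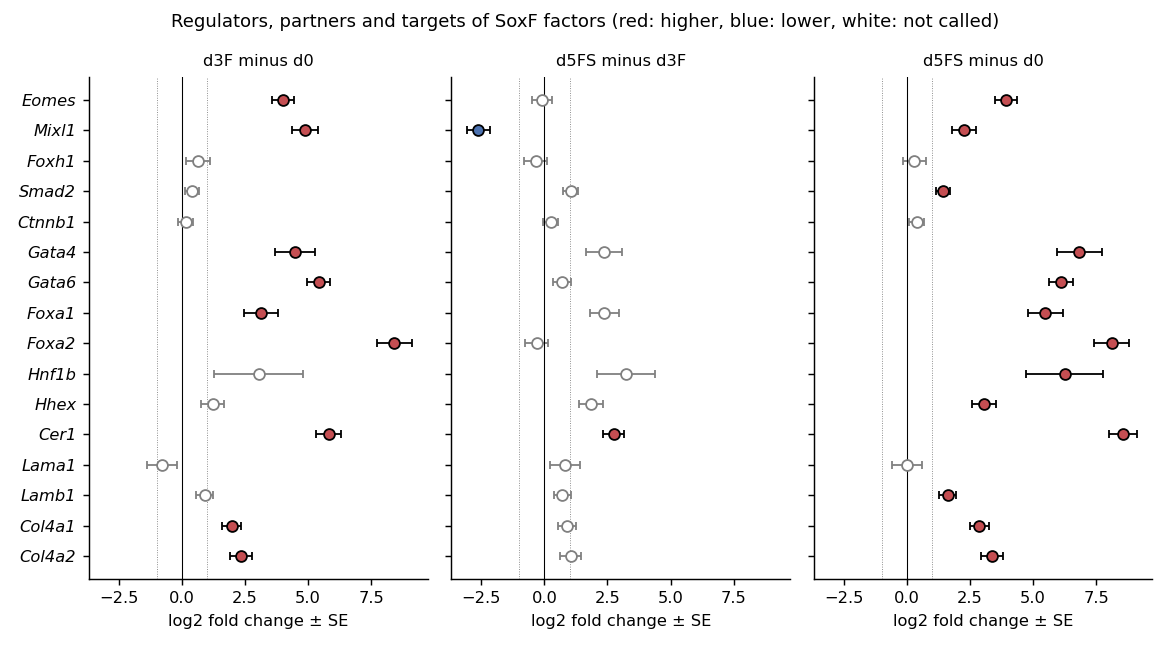
Log2 fold changes, with bars of 1 SE, of the 16 regulators, partners and targets of SoxF factors. From d0, 9 genes were higher in d3F and 13 in d5FS, and between d3F and d5FS only Cer1 (higher) and Mixl1 (lower) passed the thresholds.

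Cartilage genes that Sox9, Sox5 and Sox6 activate in chondrocytes were examined from a list of 11, of which 8 were tested. None passed from d0 to d3F or from d3F to d5FS, while 4 rose and 1 fell from d0 to d5FS, against 12.4% and 10.4% of all genes. Matn1, which encodes the matrix protein matrilin-1, had 0.724 and 0.449 CPM in d0, 0.439 and 0.58 CPM in d3F, and 21.9 and 2.85 CPM in d5FS. Its d5FS replicates stood far apart, and its log2 fold change from d0 was 4.25 (SE 0.91, adjusted p = 0.015 from edgeR). Acan, the cartilage proteoglycan aggrecan, went the other way, from 4.61 and 8.45 CPM in d0 to 0.425 and 0.854 CPM in d5FS (log2 fold change -3.48, adjusted p = 0.00991). Col11a1 and Col11a2, fibrillar collagens, rose by 2.40 and 2.38. Col2a1, the main cartilage collagen, had 14 and 6.6 CPM in d0 and 45.1 and 15.3 CPM in d5FS, and did not pass (log2 fold change 1.44, adjusted p = 0.0814).

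The likeness of expression patterns was measured as the root mean square difference of log2 normalized CPM over the 6 samples, after each gene was centred on its own mean. The pattern of Sox17 was nearest to those of Irs4 (0.192), an insulin receptor substrate, Prss12 (0.426), a serine protease, and Fam163a (0.458). Irs4 had 3.12 and 2.74 CPM in d0, 26.8 and 54.6 CPM in d3F, and 264 and 494 CPM in d5FS, and replicate 2 exceeded replicate 1 in d3F and d5FS as it did for Sox17. The pattern of Sox7 was nearest to those of Wt1 (0.0853), a zinc finger factor, Prrt2 (0.265) and Hyal3 (0.269). Wt1 had 2.08 and 0.809 CPM in d0, 0.703 and 1.98 CPM in d3F, and 4.07 and 2.22 CPM in d5FS. The pattern of Sox18 was nearest to those of Nos1 (0.183), a nitric oxide synthase, Sh3gl2 (0.189) and Mroh6 (0.19). Within the members, Sox7 and Sox6 (0.507) were nearest to each other, as were Sox18 and Sox15 (0.71). The nearest member to Sox4 was Sox7 (0.619), that to Sox11 was Sox4 (0.65), that to Sox5 was Sox4 (0.963) and that to Sox13 was Sox15 (0.715). Sox17 had no member closer than Sox9 (1.59), and Sox9 none closer than Sox5 (1.36). These values describe 6 samples and were not tested.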

How the data were processed

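RNA-seq data of 6 samples, 2 for each of d0, d3F and d5FS, were used, and samples were grouped by the time point and sorting markers of their labels. According to the study's methods and the labels, ribosomal RNA was depleted, TruSeq V2 libraries were sequenced in paired ends, and STAR alignments to mm10 were quantified per gene with RSEM. Their versions and the annotation release are not given in the sources used here. The authors deposited, per sample, expected counts (estimated fragments per gene, not normalized) and TPM (divided by effective length and scaled so that all samples have an equal sum). Their FPKM values were not used.

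The rounded expected counts were analysed with edgeR 4.0.16 (R 4.3.3). The filterByExpr function kept 14539 genes, library sizes were scaled by TMM, and the quasi-likelihood test was applied to a fit of all 6 samples with population as the only term and 3 residual degrees of freedom. An SE is the size of the log2 fold change over the root of its F statistic. Normalized log2 CPM used a prior count of 2. CPM are expected counts over the sample's total, times 1000000, and compare a gene between samples, while TPM compare genes. Intervals are exact 95% intervals and cover counting error only. Scripts were tested on simulated data. DESeq2 1.42.0, other scalings and filters, the replicate number as a block and leaving out each sample were the alternatives.

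The 10 genes and all lists were chosen with earlier results of these data known. Named genes are the members, for each list those with the largest changes past the thresholds and at least 1 CPM on average in a population, the genes nearest in pattern, and those that overlap a member. Genes that did not pass or were not tested (Dcx, Col2a1, Cdh5, Emcn, Kdr, Rhox5, Amn, Foxh1, Ctnnb1, Lama1, Thy1, Dcn, Pdgfrb, Lum, Nes) were named outside this rule, after their values were seen. The same holds for Sparc, which passed and was named for its part in a summed level. Positions are from GENCODE M21 on mm10. Python 3.11.15, scipy 1.17.1 and matplotlib 3.10.9 were used.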

Additional observations from a re-analysis of the deposited data

How the results depend on the processing

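Sox9 passed from d0 to d5FS in every alternative that tested it, with log2 fold changes of 5.39 to 5.65. Those of Sox17 were 6.42 to 7.32, in a comparison that the sort on Sox17-Cherry partly set. Among the 10 genes, 2 passed in d3F against d0, 1 in d5FS against d3F and 6 in d5FS against d0. With at least 10 counts required in every sample, 6 of the 10 were left to test. Sox9 was not among these 6, and it had entered the main test through d3F and d5FS alone. Of the 6, 1 passed in d3F against d0 and 0 in d5FS against d3F, where Sox17 had adjusted p = 0.0502 in edgeR. DESeq2 tested against a log2 change of 1 left 2 from d0 to d5FS, Sox17 and Sox9. The DESeq2 Wald test, and edgeR with no filter, gave 3 from d0 to d3F, Sox15 being added. Leaving out 1 sample at a time gave 1 to 3, 0 to 1 and 2 to 5. The cause was not tested.

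With the replicate number as a block, 2, 1 and 6 passed and no call of a member changed. Over all genes the block moved the calls from 683, 224 and 3313 to 1320, 918 and 4296. Deviations of same-numbered samples correlated at 0.314, 0.324 and 0.278 in the 3 pairs of populations, so that they deviated together to some degree. The labels do not say what a number stands for, and with 2 numbers its source was not tested.

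Of 376 log2 fold changes of single genes under alternatives, 336 kept direction and side of the threshold, 24 lost the call, 4 gained it and 12 changed sign, each of the last with 1 sample left out. From d0 to d3F these were Sox7 (-1.28 to 0.67) and Sox6 (-0.96 to 0.43). In d5FS against d3F they were Sox18 (-0.49 to 4.22), Sox11 (-1.13 to 0.55), Sox6 (-0.31 to 1.09) and Sox15 (-0.53 to 0.26), and in d5FS against d0 Sox11 (-0.49 to 1.20) and Sox6 (-0.26 to 0.66). None of these had passed. Sox7, Sox18, Sox9 and Sox5 held few counts in at least 1 population, which limits their precision.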

Other observations

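The other 10 Sox genes, 8 of which were tested, were dominated in d0 by Sox2, a factor of pluripotent and neural cells. In d3F replicate 2, Sox3 (2.86 TPM) was above Sox2 (2.31 TPM), while in every other sample Sox2 was the highest of the 10. Sox2 had 43.43 and 40.14 TPM in d0, 11.57 and 2.31 TPM in d3F, and 4.5 and 1.69 TPM in d5FS, and it fell from d0 to d3F (log2 fold change -3.10, adjusted p = 0.027 from edgeR) and from d0 to d5FS (-3.66, adjusted p = 0.00613). Sox21, a SoxB2 repressor, had 0.3 and 0.26 TPM in d0, 0.34 and 0.12 TPM in d3F, and 1.29 and 1.19 TPM in d5FS. It rose from d3F to d5FS by 3.07 on the log2 scale (standard error 0.53, adjusted p = 0.0368), beside Sox17 among the members. Sox3, a SoxB1 factor, had 0.71 and 0.37 TPM in d0, 4.73 and 2.86 TPM in d3F, and 0.56 and 1.44 TPM in d5FS. Its difference between d0 and d3F did not pass (log2 fold change 2.62, standard error 0.63, adjusted p = 0.0539).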
